A study of Mus musculus with 8 samples.

Results

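A group of genes that move, store and sense iron in the cell was followed through peaks of phosphorylated RNA polymerase II in mouse erythroleukaemia cells. The 10 genes, out of 21535 protein-coding genes with a known strand, were Tfrc, Slc11a2, Steap3, Slc25a37, Fth1, Ftl1, Slc40a1, Hmox1, Aco1 and Ireb2. Every peak that overlapped the RefSeq interval of a gene, extended by 10 kb at each end, was taken, which gave 246 of the 208064 peaks in all libraries. The rule itself uses gene names and positions.

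The cells were MEL, a mouse erythroid leukaemia line, grown in DMEM with serum. CUT&Tag, in which an antibody guides a transposase to nearby chromatin, was carried out against the C-terminal domain of Rpb1, the largest polymerase subunit, phosphorylated on serine 5 (Ser5P, antibody D9N5I) or serine 2 (Ser2P, antibody E1Z3G). Each antibody was used on a line with the genotype dCAS control (control) and on a line with the genotype Myrlin KD (KD), with 2 libraries for each of the 4 groups and 8 in all. Myrlin is the RNA transcribed from the enhancer 81 kb upstream of Myb, and the series asks how it acts on Myb. No agent or time course was applied to any group. The labels speak of control and CRISPR-edited lines and do not say whether a line is 1 clone or whether replicates came from separate cultures. P-values here rest on library-to-library spread, which could be technical in part or in full.

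Developing red cells take up more iron than most cells because haem needs it. Iron bound to transferrin enters through the transferrin receptor (Tfrc), is reduced in the endosome by Steap3, leaves the endosome through Slc11a2 (DMT1) and enters the mitochondrion through Slc25a37 (mitoferrin-1). Surplus iron is stored in ferritin, made of heavy (Fth1) and light (Ftl1) chains, or is exported through Slc40a1 (ferroportin), and Hmox1 frees iron from haem. The RNA-binding proteins IRP1 (Aco1) and IRP2 (Ireb2) sense iron and set the translation or stability of many of these messages, a step that polymerase peaks do not record. Ser5P marks polymerase that has initiated, and Ser2P marks polymerase that is elongating.

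The start regions of 6 members are shown because the peaks described below sit on or beside them. Each line holds the 250 bases before a RefSeq start (GRCm38.p6), written 5′ to 3′ on the strand of the gene. Capitals mark matches, on either strand, to motifs searched in every promoter: GATAA (bound by GATA factors), CACCC (KLF factors), GGGCGG (SP factors), TATAAA (the TATA box), ACGTG (the core of hypoxia and E-box elements), TGACTCA (AP-1 and NF-E2), TGACNNNGC (the antioxidant element) and CCGGAAG (ETS factors). For Fth1, Steap3 and Ireb2 the start shown lies inside the outer gene interval, at the start nearest to the strongest peak.
Tfrc, chr16:32608646-32608895, plus strand: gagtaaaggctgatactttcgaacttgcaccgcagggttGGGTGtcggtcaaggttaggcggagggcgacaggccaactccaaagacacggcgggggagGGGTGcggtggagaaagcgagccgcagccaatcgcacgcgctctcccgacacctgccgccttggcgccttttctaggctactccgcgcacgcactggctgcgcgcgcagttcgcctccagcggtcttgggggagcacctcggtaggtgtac
Steap3, chr1:120265287-120265536, minus strand: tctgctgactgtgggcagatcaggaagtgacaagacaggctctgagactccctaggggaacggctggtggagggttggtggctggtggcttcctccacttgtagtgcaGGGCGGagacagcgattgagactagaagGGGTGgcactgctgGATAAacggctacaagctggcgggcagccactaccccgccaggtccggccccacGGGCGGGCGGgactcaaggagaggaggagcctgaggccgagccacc
Fth1, chr19:9982396-9982645, plus strand: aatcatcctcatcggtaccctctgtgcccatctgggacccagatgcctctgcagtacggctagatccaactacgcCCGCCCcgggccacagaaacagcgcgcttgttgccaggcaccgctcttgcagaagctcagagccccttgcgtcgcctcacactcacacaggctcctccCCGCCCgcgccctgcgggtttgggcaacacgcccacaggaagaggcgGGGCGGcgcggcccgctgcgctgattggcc
Ftl1, chr7:45459887-45460136, minus strand: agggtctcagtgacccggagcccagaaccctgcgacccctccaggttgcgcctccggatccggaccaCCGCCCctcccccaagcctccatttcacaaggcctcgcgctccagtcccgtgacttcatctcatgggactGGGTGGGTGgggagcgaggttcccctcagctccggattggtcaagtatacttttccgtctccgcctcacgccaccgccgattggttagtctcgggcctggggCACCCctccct
Aco1, chr4:40143015-40143264, plus strand: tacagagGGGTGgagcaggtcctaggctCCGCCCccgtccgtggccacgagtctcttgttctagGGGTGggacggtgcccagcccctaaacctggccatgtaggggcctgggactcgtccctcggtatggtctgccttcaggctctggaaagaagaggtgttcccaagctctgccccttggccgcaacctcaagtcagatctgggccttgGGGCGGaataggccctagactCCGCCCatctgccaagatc
Ireb2, chr9:54863505-54863754, plus strand: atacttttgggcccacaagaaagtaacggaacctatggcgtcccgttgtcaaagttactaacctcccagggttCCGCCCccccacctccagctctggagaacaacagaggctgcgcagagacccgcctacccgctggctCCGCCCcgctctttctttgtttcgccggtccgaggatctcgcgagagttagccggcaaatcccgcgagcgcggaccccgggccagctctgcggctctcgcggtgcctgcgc

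GGGCGG was found before at least 1 start of all 6 genes, against 32.7% of the 32851 promoters in the table. In Tfrc it stood before the second RefSeq start, 226 bp inside the first, and not in the sequence above. CACCC was found in 5 of the 6 genes, the exception being Ireb2, against 52.0% of all promoters. In Fth1 it stood only before the outer start, where no library had a peak. GATAA was found in Steap3 and Fth1 (22.6% of all promoters), for Fth1 only before its outer start. TATAAA was found only at that outer Fth1 start (12.4%) and ACGTG only before the second Tfrc start (16.6%). No match was found for TGACTCA (4.46%), TGACNNNGC (10.2%) or CCGGAAG (6.91%). Overlapping matches were each counted, genes with several starts had more windows than others, and a match is a run of letters, not a shown binding site. CAGTGN, the loop letters of the iron-responsive element, was searched on the sense strand in the 50 bases after the start. It was found at the Steap3 start 811 bp inside the gene and at no other start searched, against 7.08% of all promoters. Sequence beyond those 50 bases, the 3′ ends of the genes included, was not searched. A missing match therefore does not mean that a gene lacks the element, and these letters alone do not show one. Slc11a2, Slc25a37, Slc40a1 and Hmox1 have no start in the promoter table, were not searched and are named only.

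The lists held 21574 to 25441 peaks for Ser5P and 20793 to 32125 for Ser2P, and their lengths and depths set what can be compared. The most frequent background pileup, a measure of relative depth, stood at 0.563 and 0.637 for Ser5P with control cells and at 0.646 and 0.841 with KD cells. The Ser2P values stood at 0.785 and 0.438 with control cells and at 1.125 and 1.035 with KD cells. Both KD libraries were thus deeper than both controls for each antibody, and median peak widths were also larger (532 to 533.5 bp against 486 to 497 bp for Ser5P, 478 to 479 bp against 381 to 428 bp for Ser2P). The part of depth and peak width in the KD differences below was not tested. The labelled knockdown cannot be checked from peaks, which do not measure the Myrlin RNA. For Ser2P, peaks covered 366 and 215 bp of the Myb promoter in control cells and 1081 and 1005 bp in KD cells. For Ser5P they covered 334 and 432 bp in control cells and 339 and 445 bp in KD cells. As a check of the labelled cell type, marker genes were scored for a Ser5P promoter peak in all 4 libraries, at any RefSeq start. Of the erythroid markers 5 of 10 had one, near the 40.5% of all genes that did, and 3 of the 10 had none in any library. Of the other markers 0 of 6 macrophage, 0 of 4 other myeloid, 0 of 4 lymphoid and 0 of 4 liver genes had one in all 4.

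A promoter is here the window 1000 bp each side of the outer 5′ end of a gene, and the body runs from there to the 3′ end. Of the 10 members, 7 had a Ser5P promoter peak in all 4 libraries, where 37.7% of all genes did, and 5 had a Ser2P promoter peak in all 4, where 36.3% did. Peaks overlapped the body in all 4 libraries in 5 members for Ser5P (19.7% of all genes) and in 5 for Ser2P (20.1%). For Slc40a1 and Ireb2 this was the promoter peak reaching over the border into the body. With promoters counted at any RefSeq start, 9 members were marked for Ser5P (40.5% of genes) and 7 for Ser2P (39.1%), and body marking dropped to 3 members for each antibody (16.4% and 17.2%). Slc25a37 was the member left without a promoter peak in any library.

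The peaks fell into 60 sites, of which 9 were at promoters, 23 in bodies and 28 in flanks. In all 8 libraries 16 sites were present, 6 at promoters, 5 in bodies and 5 in flanks, and 22 were seen in 1 library only. Of the 47 sites with Ser5P, 22 were in all 4 Ser5P libraries, where 38.3% of all regions were, and of the 48 with Ser2P, 17 were in all 4, where 30.0% were. No site was present in both controls and absent from both KD libraries for either antibody, where 4.1% of all Ser5P regions and 1.59% of all Ser2P regions were. The reverse held for 1 of 47 Ser5P sites, against 2.19% of all regions, and for 5 of 48 Ser2P sites, against 5.08%. Member sites were merged over the peaks of both antibodies, and the regions behind these percentages over the 4 libraries of 1 antibody. The counts and shares are thus unlike measures, and no difference is read from them.

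**Figure D1:**
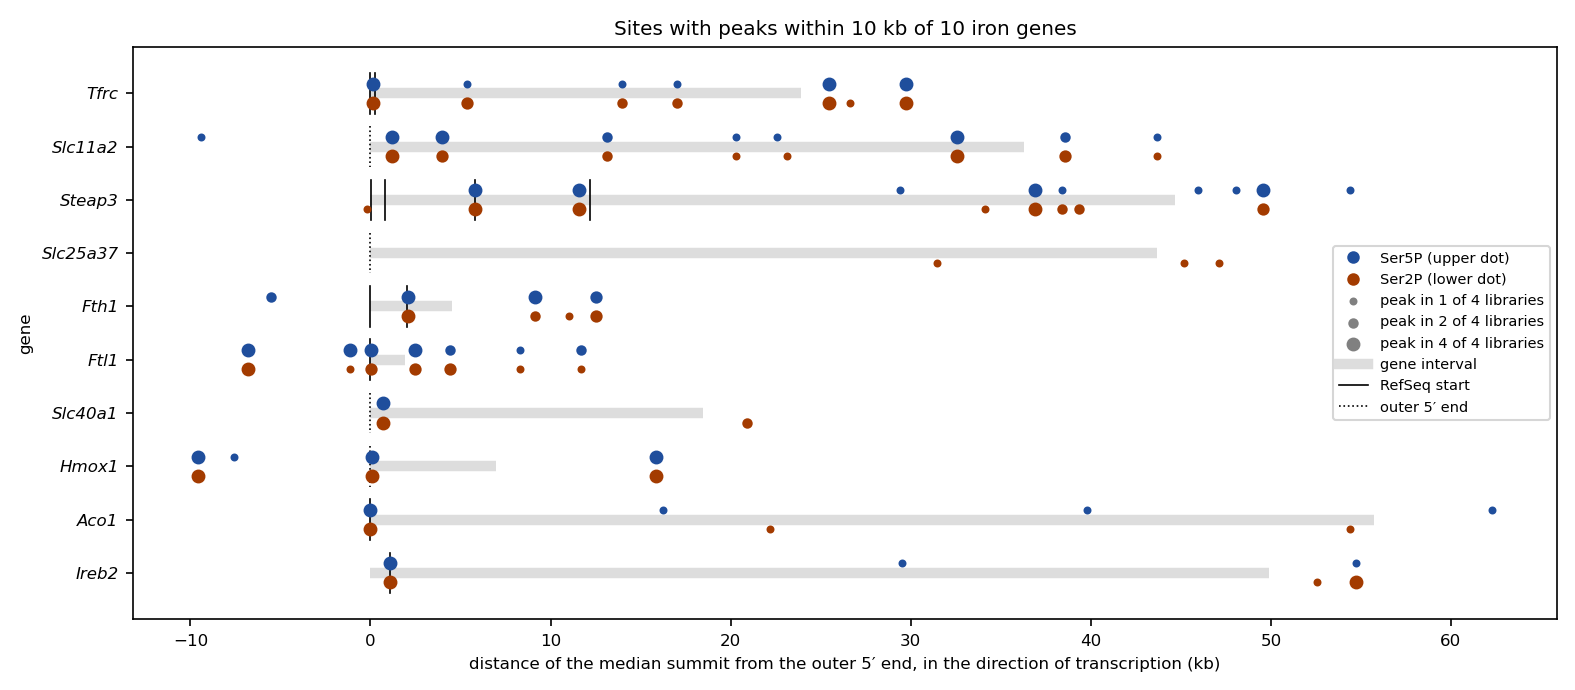
Sites with peaks around each gene, placed by the median summit distance from the outer 5′ end (kb, in the direction of transcription); upper blue dots are Ser5P, lower brown dots are Ser2P, dot size gives the number of libraries with a peak (of 4), grey bars are gene intervals and vertical lines are starts. The largest dots stand near a start in most genes; the Ftl1 start site was seen in 7 of 8 libraries, and the 3 Slc25a37 sites were each seen in 1 Ser2P library.

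Tfrc, the receptor for iron-loaded transferrin, lies at chr16:32608896-32632794 on the plus strand. Its promoter was covered by peaks over 713 and 831 bp in the Ser5P controls and 857 and 852 bp in KD cells. Ser2P peaks covered 719 and 492 bp in control cells and 760 and 762 bp in KD cells. KD values lay above control values for both antibodies, by 4.12 ± 4.89 percentage points of the window for Ser5P (SE, limma adjusted p = 0.955) and 7.77 ± 4.89 for Ser2P (adjusted p = 0.426). All 8 summits fell 59 to 174 bp inside the outer start, before the second RefSeq start at 226 bp.

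The Tfrc body held few peaks. Ser5P peaks covered 263 and 0 bp in control cells and 319 and 356 bp in KD cells. Ser2P peaks covered 239 and 296 bp in control cells and 865 and 822 bp in KD cells. The groups did not overlap for either antibody. The Ser2P difference was 2.52 ± 0.43 percentage points (SE; limma unadjusted p = 0.00188, adjusted p = 0.111) and did not pass the test. It came from sites at 13944 and 17009 bp inside the gene, present in both Ser2P KD libraries and neither Ser2P control, whose folds ranked at percentiles 5.8 to 36.2 of their lists. With only peaks of −log10 q of at least 5, or with lists of equal length, the difference was −0.66 percentage points. Beyond the 3′ end, sites at 25473 and 29742 bp from the start, past the end of the 23.9 kb gene, were present in all 8 libraries. The nearer of these sites had summit pileups of at least 60. The 5′ end of Tnk2, a kinase gene, lay 9713 to 9774 bp from the summits of the nearer site and 5395 to 5541 bp from those of the farther one. The 3 genes with profiles nearest to Tfrc over 16 values (promoter and body shares in 8 libraries) were Gm51425, Urb1 and Plag1, at Euclidean distances of 0.0696 to 0.084.

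Steap3, the endosomal ferrireductase, lies at chr1:120226414-120271081 on the minus strand and has 4 starts in the promoter table. Its outer promoter carried 1 peak in all, of 215 bp in Ser2P control 2, with a summit pileup of 6. The peaks lay instead at a start 5795 bp inside the gene, where all 8 libraries had a summit between 5685 and 5781 bp. These summits ranked at percentiles 70.1 to 87.9 of their lists by fold. A second site in all 8 libraries had summits between 11561 and 12167 bp, upstream of the start at 12203 bp. The third site in all 8 libraries had a median summit at 36914 bp, 24226 to 24866 bp from the nearest start, and ranked low by fold (percentiles 4.5 to 14.4). Ser5P peaks covered 2328 and 2414 bp of the body in control cells and 2826 and 2769 bp in KD cells. Ser2P peaks covered 2526 and 1886 bp in control cells and 2955 and 3226 bp in KD cells. KD values lay above control values for both antibodies, and the Ser2P difference of 2.03 ± 0.54 percentage points (SE; limma unadjusted p = 0.0131, adjusted p = 0.232) did not pass the test.

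Slc11a2, which carries iron out of the endosome, lies at chr15:100387898-100424209 on the minus strand. Its first site was downstream of the outer 5′ end, with summits 1131 to 1296 bp inside the gene in all 8 libraries, and the peak reached into the promoter window in 7. Ser5P peaks covered 233 and 228 bp of the promoter in control cells and 184 and 31 bp in KD cells. Ser2P peaks covered 119 and 0 bp in control cells and 184 and 119 bp in KD cells. The Ser5P groups did not overlap, and the Ser2P groups met at 119 bp. The Ser5P difference was −6.15 ± 4.39 percentage points (SE, limma adjusted p = 0.905), and it was 6.11 when the promoter was widened to 2000 bp each side, which takes in the whole peak.

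In the Slc11a2 body, control and KD libraries were interleaved. Ser5P peaks covered 1709 and 2156 bp in control cells and 2069 and 1946 bp in KD cells. Ser2P peaks covered 2547 and 1751 bp in control cells and 1214 and 2157 bp in KD cells. The groups overlapped for both antibodies. A site at 3990 bp was present in 7 libraries and one at 32552.5 bp, near the 3′ end, in all 8. The genes Methig1, Higd1c and Gm5475 lie within 10 kb. The first site, counted here as the Slc11a2 promoter peak, had its summits 115 to 280 bp from the 5′ end of Gm5475, so the peak cannot be assigned to Slc11a2 alone.

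Slc25a37, the mitochondrial iron importer of erythroid cells, lies at chr14:69241848-69285544 on the minus strand. No Ser5P library had a peak in the gene or within 10 kb of it. Ser2P control 1 had a flank peak of 325 bp, and Ser2P KD 2 had a body peak of 268 bp and a flank peak of 464 bp. Ser2P control 2 and Ser2P KD 1 had none, so neither group was marked in both of its libraries. Summit pileups of the 3 peaks were between 8 and 19.

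The empty stretch around Slc25a37 was long for Ser5P. It ran 1950.6 kb without a peak in any Ser5P library and held 15 protein-coding genes, among them the neurofilament genes Nefl and Nefm. Of 37509 gaps between merged Ser5P regions, 236 were at least as long, and the median was 12.2 kb. For Ser2P the nearest regions outside the gene were 456.2 kb apart, with 7 protein-coding genes and 1 region inside Slc25a37 between them. Slc25a28 (mitoferrin-2), the related importer of other tissues, had Ser5P peaks over 1010 and 1082 bp of its promoter in control cells and 1076 and 1035 bp in KD cells. A missing peak sets no level for the transcript, since a list holds only what passed the authors' threshold. Over the 16 shares the genes nearest to Slc25a37 were Itgam, Alx4 and Ttc23l, each at a Euclidean distance of 0.0001. The only Slc25a37 share above 0 was that of the body in Ser2P KD 2, from a peak of 268 bp. Such small distances thus follow from nearly empty windows and show no shared pattern of peaks.

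**Figure D2:**
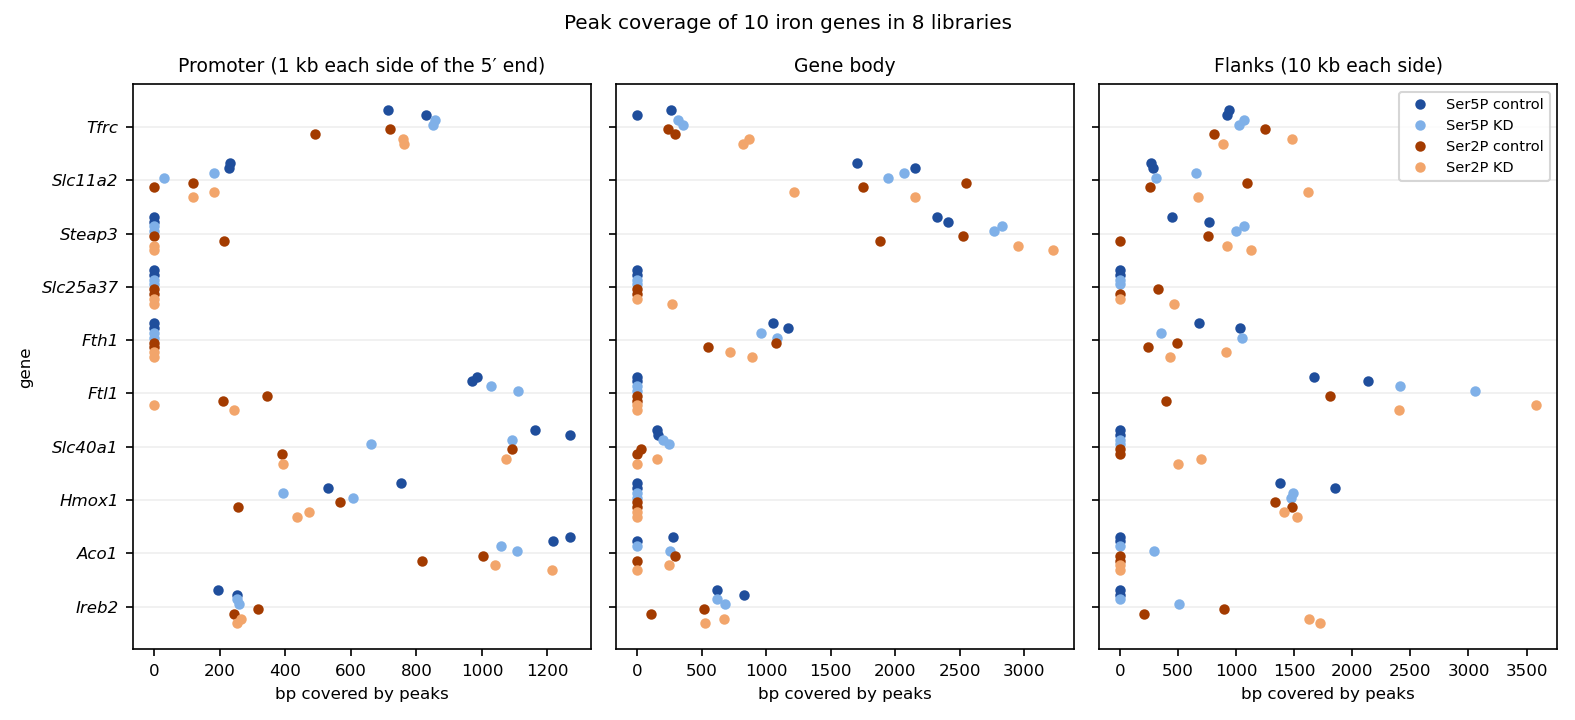
Bp covered by peaks in the promoter, body and flanks of each gene, 1 point per library; colours give antibody and line, with 2 points per group. Slc25a37 has no covered promoter base in any library, while promoters of Aco1 are covered over 816 to 1269 bp in all 8.

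Fth1, the ferritin heavy chain with ferroxidase activity, lies at chr19:9980600-9985111 on the plus strand. No library had a peak at the outer start, and all 8 had one around the start at 2046 bp inside, with summits from 1960 to 2202 bp. Ser5P peaks covered 1055 and 1167 bp of the body in control cells and 964 and 1086 bp in KD cells. Ser2P peaks covered 1081 and 547 bp in control cells and 718 and 891 bp in KD cells. The groups overlapped for both antibodies, with differences of −2.45 ± 5.23 percentage points for Ser5P and −0.27 ± 5.23 for Ser2P (SE, limma adjusted p = 1 for each). Flank sites at 9144 and 12504.5 bp were each present in 6 libraries. The 3 genes with the nearest profiles to Fth1 were Gm9997, Tarbp2 and H3f3b, at Euclidean distances of 0.1495 to 0.157.

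Ftl1, the ferritin light chain, lies at chr7:45457944-45459886 on the minus strand and is 1.94 kb long. Ser5P peaks covered 984 and 970 bp of its promoter in control cells and 1029 and 1110 bp in KD cells. Ser2P peaks covered 346 and 211 bp in control cells and 0 and 243 bp in KD cells. Every Ser5P library lay above every Ser2P library, a pattern that 5.3% of the 9814 promoters tested also showed. The difference between antibodies was 41.14 ± 3.71 percentage points (SE; limma adjusted p = 0.011, 4 libraries against 4). It was the only member called in that comparison, where 0.907% of promoters were called. Without any one of the 4 Ser5P libraries the adjusted p was between 0.0607 and 0.0855 and the call was lost, and over 15 alternatives the difference was 25.33 to 63.64 percentage points.

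Ftl1 also had the highest pileup of the 10 genes beside some of the lowest folds. The pileup, the number of overlapping fragments or reads at a summit, was solved from the deposited fold and p of each peak. At the start it was 199 and 210 in the Ser5P controls and 246 and 282 in KD cells, at percentiles 99.4 to 99.6 of its list. By fold the same 4 peaks ranked at percentiles 39.6 to 53.1. The Ser2P peaks at the start had pileups of 74 and 45 in control cells and 88 in KD 2, at percentiles 91.8 to 94.9, and folds at percentiles 19.0 to 38.8. The local background that divides the pileup was 30.17 in the median over the 37 Ftl1 peaks, against 6.91 over all 246, and reached 90.5 times the most frequent background of its library. The fold therefore ranks Ftl1 far lower than the pileup does. Ser2P KD 1 had no peak in the promoter window, but peaks beside it with pileups of 55 at 1219 bp upstream and 84 at 4364 bp downstream of the start. The 0 bp of that library says only that no peak was called in the window.

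Around Ftl1, further sites lay at 2489 bp (7 libraries) and 4408 bp (5 libraries) from the start, past the 3′ end. The site at 4408 bp was present in both Ser5P KD libraries and neither Ser5P control, with folds at percentiles 0.0 to 2.2. A site at −6825.5 bp in all 8 libraries lay 26 to 312 bp from the 5′ end of Bax, the neighbouring apoptosis gene. By the rule on position its peaks are included in the Ftl1 counts and flank values. Both ferritin genes have processed copies elsewhere in the genome. How reads that map to several places were treated is not given in the sources used here, so the pileups of Fth1 and Ftl1 are uncertain in that respect.

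**Figure D3:**
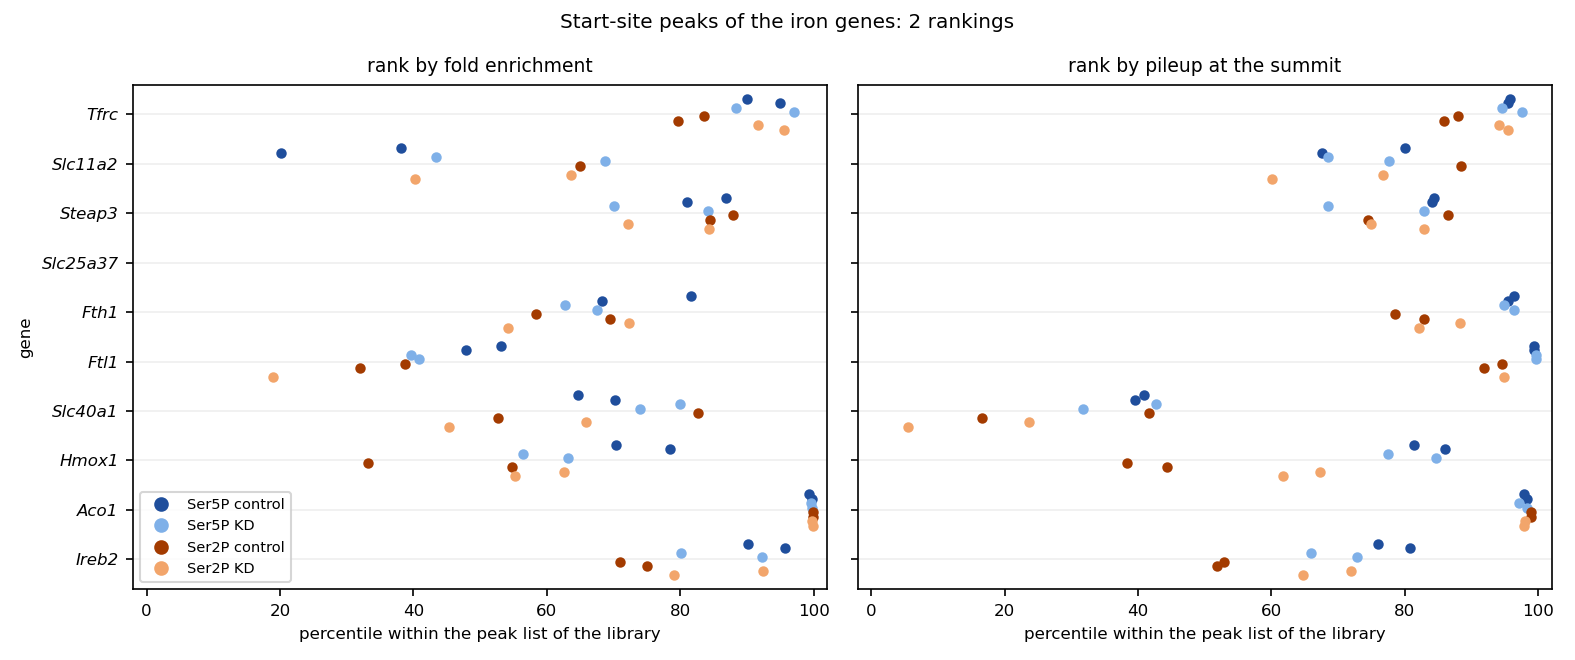
Percentile of the start-site peak with the highest summit pileup of each gene within the peak list of its library, by fold enrichment (left) and by summit pileup (right), 1 point per library. For Fth1 and Steap3 the choice includes peaks close to an inner RefSeq start. Ftl1 moves from percentiles 19.0 to 53.1 by fold to percentiles 91.8 to 99.6 by pileup, while Slc40a1 moves down.

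Slc40a1, the iron exporter, lies at chr1:45908070-45926532 on the minus strand. Ser5P peaks covered 1163 and 1268 bp of its promoter in control cells and 1092 and 661 bp in KD cells. Ser2P peaks covered 1091 and 391 bp in control cells and 1073 and 392 bp in KD cells. The Ser5P KD values lay below the controls, and the Ser2P groups overlapped almost fully. The Ser5P difference was −16.94 ± 15.29 percentage points (SE, limma adjusted p = 0.934). These wide peaks were shallow, with pileups of 9 to 19, at percentiles 5.5 to 42.7 of their lists. Summits lay anywhere from 39 to 928 bp inside the gene, so the position of the maximum is poorly set. The same peak ran on into the body, over 152 and 162 bp in the Ser5P controls and 201 and 248 bp in KD cells. For Ser2P this overhang was 28 and 0 bp in control cells and 157 and 0 bp in KD cells. No library had a separate body peak. A flank peak past the 3′ end, of 701 and 503 bp, was present in both Ser2P KD libraries and in no other.

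Hmox1, the haem oxygenase that frees iron from haem, lies at chr8:75093618-75100593 on the plus strand. Ser5P peaks covered 754 and 531 bp of its promoter in control cells and 394 and 606 bp in KD cells. Ser2P peaks covered 566 and 255 bp in control cells and 472 and 435 bp in KD cells. The groups overlapped for both antibodies, and no library had a body peak. A second site at −9585 bp was present in all 8 libraries, with folds at percentiles 63.8 to 85.4. Its fold percentile was above that of the promoter peak in 7 of the 8 libraries, Ser5P control 2 being the exception. The nearest start of another protein-coding gene, Mcm5, was 25394 to 25508 bp from its summits. The remaining site in all 8 libraries, at 15869 bp, lay 14 to 20 bp from the 5′ end of Mcm5, a replication helicase gene.

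Aco1, a cytosolic aconitase that becomes IRP1 when iron is short, lies at chr4:40143265-40199009 on the plus strand. Its promoter peak was among the highest in every library, at percentiles 99.3 to 99.9 by fold and at percentiles 97.1 to 98.9 by pileup. Ser5P peaks covered 1269 and 1218 bp in control cells and 1059 and 1106 bp in KD cells. Ser2P peaks covered 1002 and 816 bp in control cells and 1039 and 1215 bp in KD cells. The KD values lay below the controls for Ser5P and above them for Ser2P, with no overlap in either. The differences were −8.05 ± 4.98 percentage points for Ser5P (SE, limma adjusted p = 0.872) and 10.89 ± 4.98 for Ser2P (adjusted p = 0.303). Away from the promoter, the 55.74 kb gene had 4 body sites, each seen in 1 library.

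Ireb2, the other iron sensor, lies at chr9:54862658-54912534 on the plus strand. Its peak lay around the RefSeq start 1097 bp inside the interval, with summits from 908 to 1295 bp in all 8 libraries and folds at percentiles 71.0 to 95.7. The peak crosses the border between promoter and body. Ser5P peaks covered 196 and 253 bp of the promoter and 617 and 830 bp of the body in control cells, and 253 and 258 bp and 617 and 683 bp in KD cells. Ser2P peaks covered 316 and 243 bp of the promoter and 519 and 106 bp of the body in control cells, and 265 and 253 bp and 676 and 525 bp in KD cells. Only the Ser2P body values did not overlap, with a difference of 0.59 ± 0.37 percentage points (SE, limma adjusted p = 0.609). A site past the 3′ end, at 54738 bp, was present in all 4 Ser2P libraries and in Ser5P KD 2 and lies at the start of the neighbouring gene Hykk.

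**Figure D4:**
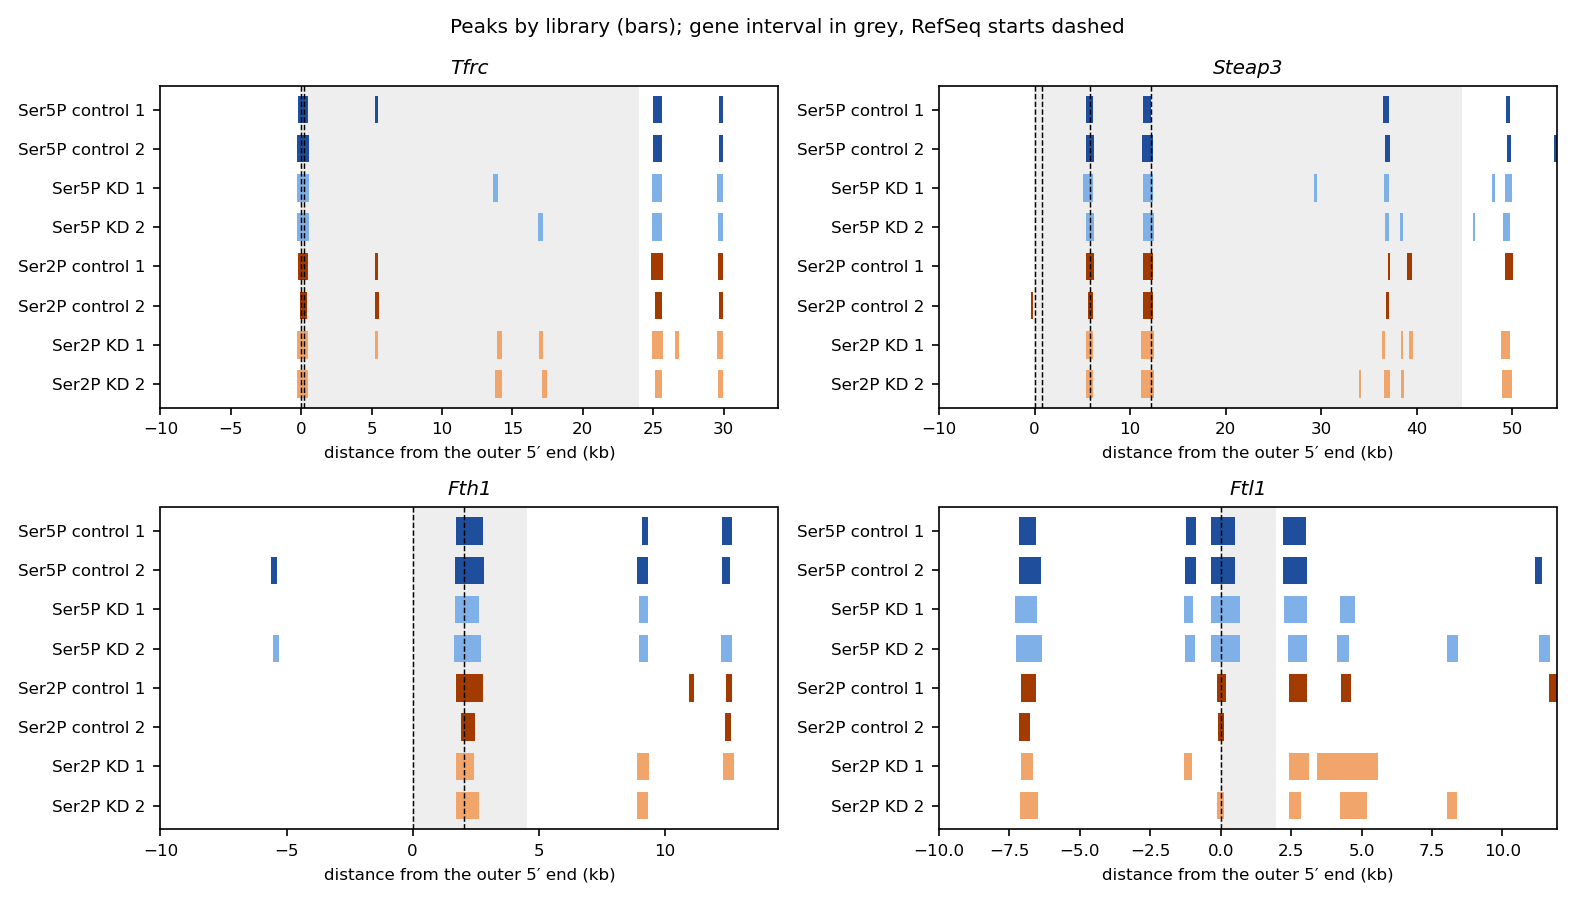
Peaks of each library drawn as bars by distance (kb) from the outer 5′ end of Tfrc, Steap3, Fth1 and Ftl1, with the gene interval in grey and RefSeq starts as dashed lines. In Steap3 and Fth1 no peak present in all 8 libraries stands at the outer 5′ end, and in Tfrc 2 sites past the 3′ end are present in all 8.

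For KD against control, none of the members passed the limma test, which was fitted to the covered share of every gene window and adjusted over all genes. At promoters 7 members could be tested and in bodies also 7, having a peak in at least 2 libraries. At promoters 0 of 9814 genes were called for Ser5P and 0 for Ser2P (percent called 0.0 for each). Unadjusted p-values under 0.05 were found for 736 genes (7.5%) for Ser5P and 1851 (18.9%) for Ser2P, with no member among them. In bodies 16 of 8403 genes (0.19%) were called for Ser5P and 70 (0.833%) for Ser2P. Unadjusted p-values under 0.05 were found in 6.08% of bodies for Ser5P, with no member among them, and in 13.1% for Ser2P, with Tfrc and Steap3 among them. The median Ser2P promoter difference was 7.35 percentage points over all genes and 2.15 over the 7 members. It was 11.19 and 9.92 without Ser2P control 1, and 3.5 and −2.85 without Ser2P control 2, so each control library moved both values and the second turned the sign for the members.

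The members whose libraries did not overlap between lines lay in both directions for Ser5P promoters. There, KD lay above control in 2 of 7 members (Tfrc and Ftl1), where 25.6% of genes did, and below it in 3 (Slc40a1, Slc11a2 and Aco1), where 10.8% did. The Slc11a2 value is the edge of a peak with summits 1131 to 1296 bp inside the gene. Its difference was 6.11 percentage points with 2000 bp each side, against −6.15 here. That of Ftl1 was −1.4 with 500 bp each side, against 4.62 here. For Ser2P promoters KD lay above control in 2 (Tfrc and Aco1), where 47.2% did, and below it in 0, where 2.26% did. In bodies KD lay above control in 3 members for Ser5P (Slc40a1, Steap3 and Tfrc, 13.7% of genes) and in 3 for Ser2P (Steap3, Tfrc and Ireb2, 33.2%). Those values of Slc40a1 and Ireb2 are the overhang of their promoter peaks. KD lay below control in bodies in 0 members for Ser5P (16.2% of genes) and in 0 for Ser2P (4.33%). By presence alone no member was KD-only or control-only in promoter or body for either antibody. The shares over all genes were 0.446% control-only and 0.409% KD-only for Ser5P promoters, and 0.2% and 1.1% for Ser2P promoters. In bodies they were 1.38% and 1.0% for Ser5P and 0.594% and 2.05% for Ser2P.

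Between antibodies, no member was called in bodies, where 0.774% of genes were. Unadjusted p-values under 0.05 were found for Ftl1 alone at promoters, where 15.0% of genes had one, and for Slc40a1 and Tfrc in bodies, where 12.1% did. For Slc40a1 the body value rests on the overhang of its promoter peak. No member had every Ser5P library below every Ser2P library at its promoter (0.856% of genes), and in bodies none was separated with Ser5P above (2.28%) or below (2.43%). Whether the KD difference itself differed between antibodies was tested by the interaction term, which called 0 members at promoters (0.0% of genes) and 0 in bodies (0.286%). Unadjusted p-values under 0.05 for that term were found for Aco1 at promoters (8.92% of genes) and for Tfrc in bodies (8.91%).

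A wider list of 48 genes of iron handling was scored for presence with promoters at any RefSeq start, and tested on the outer 5′ end windows used for the members. Ser5P marked 27 of 48 in all 4 libraries, where 40.5% of all genes were marked, and Ser2P marked 25, where 39.1% were. All 8 genes of iron-sulphur cluster assembly (such as Nfs1, the cysteine desulphurase) were marked by both antibodies. So were 5 of 6 chaperones and ferritin turnover genes and 5 of 7 genes of haem turnover and control. Of the other membrane transporters, 7 of 9 were marked for Ser5P and 5 of 9 for Ser2P. Among plasma transport genes, many of which act in liver, only Tfr2 of 10 was marked, and among other reductases and oxidases 0 of 6 were. Of the 27 listed genes tested at promoters and 28 in bodies, none was called for KD against control. At Ser2P promoters 8 of the 27 had an unadjusted p under 0.05, all with higher KD values. Of all genes 18.9% had one, 1814 with higher and 37 with lower KD values, so the direction is not particular to the list. Under alternatives a few listed genes were called at Ser2P promoters, 1 with −log10 q of at least 5, 2 with 500 bp windows and 2 with no filter. In Ser5P bodies 1 was called with the stricter q.

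By presence, 2 of the 48 genes had a Ser2P body peak in both KD libraries and neither control, where 2.05% of all genes did. With lists of equal length or the stricter q the count was 0, and without Ser2P control 1 it was 7. In Nfs1 these covered 238 and 843 bp, and in Blvra, biliverdin reductase, 275 and 595 bp. Between antibodies, the iron chaperone gene Pcbp1 had a promoter difference of 31.27 ± 3.58 percentage points (SE, limma adjusted p = 0.0214) and Abcb8, a mitochondrial transporter gene, one of 25.11 ± 3.54 (adjusted p = 0.0395). Ser5P covered more of both promoters than Ser2P did. Ser5P also covered more of the body of Glrx5, a glutaredoxin of iron-sulphur assembly, by 6.2 ± 0.59 percentage points (SE, limma adjusted p = 0.0242). Of these 3 genes, Pcbp1 kept its call in 6 of 15 alternatives, Abcb8 in 4 of 15 and Glrx5 in 5 of 14, and each lost it without any one of the 8 libraries. In those fits the differences were 28.91 to 33.63 percentage points for Pcbp1, 22.65 to 27.57 for Abcb8 and 5.79 to 6.61 for Glrx5. The genes were named after their values were seen.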

How the data were processed

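The 8 CUT&Tag libraries were grouped by antibody and genotype as the labels give them. Per the submitters' processing notes MACS2 2.2.7.1 and deepTools 3.3.1 were run with Picard 2.21.4, SAMtools 1.9, Bowtie2 2.3.5 and cutadapt 2.7, and the build was GRCm38 (mm10). Tool settings, the use of a control library and read totals are not given in the sources used. The authors deposited, for each library apart, a peak list holding the summit offset, a score for display, the −log10 q-value and −log10 p-value, and a ratio, which is the summit's fold enrichment. These are values of each peak within its own list, used only to rank, filter and describe peaks, and libraries were not compared by them. The deposited coordinates were converted to 1-based.

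The summit pileup and its background were solved from the deposited fold and −log10 p, with a solution for 99.93% of peaks or more in every library. Between 24 and 30 peaks per library lay on sequences other than the assembled chromosomes and were not used. Gene positions came from the RefSeq table of GRCm38.p6. Strand came from the RefSeq promoter table for 17492 genes and from GENCODE vM1, by symbol (3649) or synonym (394), and 352 genes without a strand were left out. The genome supplied is of another build and was not used. Exon annotation was not used here.

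Limma 3.58.1 in R 4.3.3 was fitted to the share of each window covered by peaks, with all 8 libraries as 4 groups (2 per group), for genes with a peak in at least 2 libraries. P-values were Benjamini-Hochberg adjusted over all genes, with 0.05 as the threshold. The fit was also run on simulated data with the same spread for every gene. Real shares differ in spread and many are 0, so that run does not vouch for the fit here. A presence call needed an overlap of 1 bp or more and carries no test, since an exact permutation test of 2 libraries against 2 cannot go below 0.333. The precision is limited by 2 libraries per group.

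All 10 members were named with values for every library. Other iron genes were named where a presence call or a KD contrast fell on them, neighbours where a peak lay within 1000 bp of their 5′ end, and the 3 genes nearest in profile to Tfrc, Slc25a37 and Fth1. Pcbp1, Abcb8, Glrx5, Slc25a28 and Tfr2 fall outside that rule and were named after their values were seen, as was Tnk2. The members and lists were chosen with earlier results of these data known. Tried as alternatives were a stricter −log10 q (at least 5), equal list lengths (20793 peaks), other windows and overlaps, no filter, only the libraries of an antibody, a replicate block and leaving out each library. Promoters at any RefSeq start were added after seeing the data.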

Additional observations from a re-analysis of the deposited data

Results flagged for a closer look

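In 2 members the KD difference was not the same for the antibodies by the unadjusted interaction test, and neither passed after adjustment over all genes. At the Aco1 promoter, KD minus control for Ser5P less that for Ser2P was −18.94 percentage points of the window (limma, unadjusted p = 0.0337, adjusted p = 0.512). All Ser5P KD values were below the Ser5P controls and all Ser2P KD values above the Ser2P controls. In the Tfrc body it was −1.62 percentage points (limma, unadjusted p = 0.043, adjusted p = 0.538). With lists of equal length, or with −log10 q of at least 5, the Tfrc value was 0.08 percentage points. An unadjusted p under 0.05 for this term was found in 8.92% of all promoters tested and in 8.91% of bodies. The Ser2P KD libraries were deeper than the Ser2P controls. With lists of equal length the Aco1 value was again −18.94 percentage points. That setting drops peaks of weaker p and leaves the borders of the others as they were, so this peak could not change. The setting therefore says nothing on depth for Aco1, and a test at equal read depth was not run.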

How the results depend on the processing

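Of 246 recomputed counts, 227 were equal to the value reported or within 1.5 times of it. Many of the reported counts are 0, and a 0 that stayed 0 is included, so that total says little on stability. No member was called for KD against control under any alternative, the replicate block included, in which Ftl1 kept its call between antibodies (1 member). Leaving out each library, the members called between antibodies at promoters ranged from 0 to 1. With a −log10 q of at least 5, 1 member was called between antibodies in bodies, Steap3, whose difference turned from −0.15 to 1.37 percentage points (limma adjusted p = 0.0317). Only part of the body peaks enters that fit. With 200 bp required, 1 member was control-only at Ser5P promoters (Slc11a2) and 1 KD-only in Ser5P bodies (Slc40a1, by the overhang of its promoter peak). Leaving out each library, presence calls ranged from 0 to 1 for Ser5P bodies KD-only, Ser2P promoters control-only and KD-only, and Ser2P bodies KD-only. Members marked at Ser2P promoters in all 4 libraries were 3 with the stricter q, 3 with 500 bp and 8 with 2000 bp each side, and in bodies 3 for each antibody with promoters at any start. Body peaks numbered 48 with the stricter q, and flank peaks 56 within 5 kb.

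Over all genes, counts moved more: the 89 promoters called between antibodies became 37 with the replicate block, 0 to 118 without single libraries and 37 to 179 otherwise. The 70 Ser2P bodies called for KD became 20 with the block, 21 to 54 without single libraries and 6 to 88 otherwise. The 16 Ser5P bodies became 4 to 73, and the 0 Ser2P promoters up to 303 without 1 library and 142 with the stricter q. The 65 bodies between antibodies became 5 to 118 and the 24 interaction bodies 0 to 63. The labels do not tie replicate numbers across lines, and the deviations of same-numbered libraries correlated at 0.0402 and 0.0081 (promoters) and 0.0318 and 0.235 (bodies) for Ser5P and Ser2P. Without a filter, many genes have no spread and limma's shared variance is unreliable. Of 889 recomputed differences of named genes 66 changed sign, 1 of them with a call.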
